A study of Mus musculus with 4 samples.

Results

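The Polo-like kinases, the Aurora kinases and the regulatory subunits of the chromosomal passenger complex were examined in cultured mouse pachytene spermatocytes. They were taken by symbol as Plk1, Plk2, Plk3, Plk4, Aurka, Aurkb, Aurkc, Incenp, Birc5 and Cdca8, which makes 10 of the 23420 genes in the expression table, and all 10 were listed there. The cells came from the testes of wild-type C57BL/6 mice of 23 weeks of age and were isolated by fluorescence-activated cell sorting on a DNA dye, DyeCycle Violet, as a fraction enriched in pachytene spermatocytes. They were then cultured for 24 h with the solvent DMSO (Ctrl, n = 2) or with 10 µM AZ20 (AZ20, n = 2), a small-molecule inhibitor of ATR, the DNA damage response kinase that maintains silencing of the X and Y chromosomes in these cells. The paper states that cells of a mouse were divided between both conditions. Libraries of the same replicate number were taken to come from the same mouse, which the labels do not state. During culture the cells were outside the seminiferous tubule. RNA was measured by RNA-seq as TPM, a level relative to all transcripts, corrected for transcript length and library depth. Reads assigned to genes numbered 14074200 and 15978305 for Ctrl, and 20414061 and 18684793 for AZ20.

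Polo-like and Aurora kinases drive entry into and passage through the cell divisions. PLK1 acts at centrosomes, kinetochores and the spindle, PLK4 starts centriole duplication, and PLK2 and PLK3 are known mostly as stress-responsive or early-response kinases. Aurora A works at spindle poles with cofactors such as TPX2 and BORA. Aurora B and its germ cell paralog Aurora C are the catalytic subunits of the chromosomal passenger complex, in which INCENP is the scaffold and activator and survivin (Birc5) and borealin (Cdca8) bring the complex to chromatin. In spermatocytes these kinases are needed at the exit from meiotic prophase, when the synaptonemal complex is taken apart and chromosomes condense and attach to the spindle. Pachytene comes before that, so cells at pachytene had not yet gone through the meiotic divisions. The sorted fraction was enriched in such cells, and round spermatid transcripts were also read, as given below.

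The cell identity of the libraries was checked with marker genes. The 10 pachytene spermatocyte markers summed to between 11457 and 11920 TPM in the 4 libraries, of which the germ cell lactate dehydrogenase Ldhc gave 5216 to 6178 TPM. The histone H1t gene Hist1h1t was at no more than 1.52 TPM, which is a transcript level. The paper checked the purity of the sorted cells by staining that included the H1T protein. None of the 9 pachytene markers tested was called by limma or voom. In each, 1 had an unadjusted p under 0.05, against 9.16% of all tested genes in limma. In limma that was Tex101, a germ cell surface protein gene, at 524 and 959 TPM in Ctrl and 449 and 375 TPM in AZ20 (log2 change -0.79, adjusted p = 0.425, and 0.0152 with the mouse as a block). Markers at 0 in all libraries were 3 of 10 for spermatogonia (Stra8, Dmrt1, Sohlh1), 2 of 8 for Sertoli cells (Sox9, Wt1), 1 of 6 for macrophages (C1qa), 5 of 6 for Leydig cells and 1 of 5 for peritubular myoid cells (Des). Of the other markers of these cell types, Uchl1 had 88 to 266 reads and Star 35 to 111, and the rest had fewer. Gfra1, a receptor of undifferentiated spermatogonia, was at 0.154 and 0.376 TPM in Ctrl and 1.11 and 0.945 TPM in AZ20 (limma adjusted p = 0.655). Its Ctrl mean was 0.265 TPM, so it passed the filter of a mean of 1 TPM only through AZ20. The macrophage lysozyme Lyz2 was at 0 and 0.246 TPM in Ctrl and 0.846 and 0.649 TPM in AZ20. Summed levels were 8.26 to 21.2 TPM for spermatogonia, mostly Uchl1, and 0.0984 to 0.934 TPM for Sertoli cells. They were 0.866 to 2.31 TPM for Leydig cells, all from Star, and 2.18 to 4.60 TPM for peritubular myoid cells, led by Tagln. Macrophage markers summed to 0.347 to 1.34 TPM. Cd68 was highest of these on average, while Lyz2 was above Cd68 in every library except Ctrl replicate 1. Round spermatid markers summed to 368 and 152 TPM in Ctrl and to 780 and 255 TPM in AZ20, with the transition protein gene Tnp2 highest. The fitted change of all 8 round spermatid markers was above 0, with a median log2 change of 0.77, while none passed the call described below and none had an unadjusted p under 0.05 in limma, and voom called 0 with 1 at an unadjusted p under 0.05. With the mouse as a block, 6 of the 8 had an unadjusted p under 0.05 in limma, against 13.3% of all tested genes. The limma adjusted p was under 0.05 in that fit for 3, namely Prm1 (0.000766), Tnp2 (0.00766) and Tnp1 (0.0279). Of these, Prm1 changed by at least 2-fold and was called, where 424 of 10316 tested genes were called higher. The part of these transcripts and of the other markers in the values below was not tested. In a bulk library, fewer cells of a type and less RNA per cell cannot be told apart.

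The genes have different promoter architecture, which is shown here because G2/M genes are commonly controlled through CCAAT boxes and CHR elements close to the start of transcription. RefSeq windows of 250 bases before to 50 bases from the start (GRCm38.p6) were found for 8 of the 10 genes, the ones not matched being Aurkb and Incenp. Searches on both strands used CCAAT for the CCAAT box, TTTGAA or TTCGAA for the CHR element, and AACGG or AACTG for the core of a MYB site. Below are stretches just upstream of the start from Cdca8, Aurka and Plk1, which hold both elements in their windows, and from Plk3, 1 of the 4 that hold neither, each written 5′ to 3′ on the strand of the gene with CCAAT boxes (or their reverse complement) in capitals.
Cdca8 (chr4:124936918-124936958, minus strand): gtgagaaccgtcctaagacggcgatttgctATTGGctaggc
Aurka (chr2:172370571-172370650, minus strand): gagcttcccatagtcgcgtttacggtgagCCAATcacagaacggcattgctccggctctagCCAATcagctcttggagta
Plk1 (chr7:122159355-122159434, plus strand): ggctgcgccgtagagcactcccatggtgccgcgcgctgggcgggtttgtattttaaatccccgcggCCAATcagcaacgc
Plk3 (chr4:117133964-117134043, minus strand): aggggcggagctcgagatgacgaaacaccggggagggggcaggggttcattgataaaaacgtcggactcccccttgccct

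The CHR element was present in 3 of the 8 windows (Plk1, Aurka and Cdca8), against 19.2% of 32851 RefSeq promoter windows. In all 3 it lay just after the RefSeq start, with its first base at 31 in Plk1, 33 in Aurka and 14 in Cdca8, counted from that start as 1. The RefSeq starts differ from the GENCODE gene starts given below. They are 122159435 against 122159439 for Plk1, 172370570 against 172370535 for Aurka and 124936917 against 124939311 for Cdca8. A CCAAT box was present in 4 windows, those of the same 3 genes and of Aurkc, against 37.4% of all windows. Aurka held 2 CCAAT boxes, at -51 and -19, and Cdca8 held 4, at -85, -51, -11 and 19, whereas Plk1 held 1, at -14. Windows with 2 or more CCAAT boxes made up 11.7% of all. The MYB core was present in 5 of the 8 windows (Plk2, Plk3, Plk4, Aurka and Cdca8), against 55.1% of all windows. These are matches of letters only. In the Ctrl order of levels described next, the genes with both elements ranked 1 (Cdca8), 2 (Aurka) and 7 (Plk1) of the 10.

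Mean levels in Ctrl ran from 191 TPM for Cdca8 down to 1.67 TPM for Aurkb and 0 for Plk3. In Ctrl the order from high to low was Cdca8, Aurka, Plk4, Birc5, Aurkc, Incenp, Plk1, Plk2, Aurkb and Plk3. Of the 9 pairs of neighbours in that order, 1 overlapped between its 2 libraries, namely Plk4 and Birc5. In AZ20 the order was the same except that Plk2 stood above Plk1, and 2 of 9 neighbour pairs overlapped, Plk4 with Birc5 and Plk2 with Plk1. Among the genes that were tested, Cdca8 ranked at percentile 90.6 of the Ctrl means, Aurka at 87.9, Incenp at 49.2 and Aurkb at 17.0. The transcripts of the spindle-pole kinase and of borealin were therefore among the more abundant messages of these cells, and those of PLK1 and Aurora B were not.

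**Figure D1:**
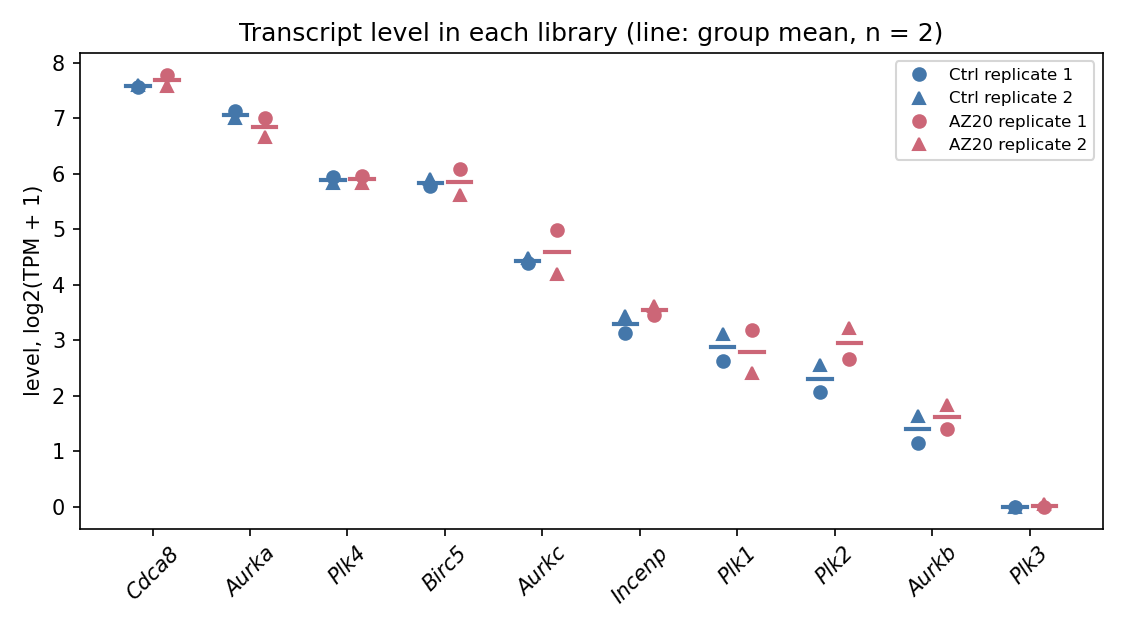
Level of each of the 10 genes in each library, as log2(TPM + 1), with Ctrl in blue, AZ20 in red, replicate 1 as circles, replicate 2 as triangles and the group mean (n = 2) as a line. Cdca8 lies highest, at 187 to 220.0 TPM, Plk3 lies at 0 or next to it, and the spread between replicates covers most of the distance between the groups.

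Plk4, which starts centriole duplication, was the most abundant Polo-like kinase transcript (ENSMUSG00000025758, chr3:40800019-40816883, plus strand). It stood at 60.5 and 55.9 TPM in Ctrl and at 61.4 and 56.2 TPM in AZ20. The groups overlapped, and in each group replicate 1 was the higher library. Means were 58.2 ± 3.31 and 58.8 ± 3.64 TPM (SD, n = 2), a log2 change of 0.01 (SE 0.18, 95% interval -0.42 to 0.45, limma adjusted p = 0.994). That interval corresponds to a fold between 0.748 and 1.36 on the TPM + 1 scale. It came to -0.08 after quantile normalization and -0.07 after median-of-ratios scaling, which moved the median over all tested genes from 0.07 to -0.07 and to -0.00187. Plk4 supplied 87.9% and 81.6% of the summed TPM of the 4 Polo-like kinases in Ctrl and 82.0% and 81.5% in AZ20.

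Plk1, the kinase of centrosome maturation, chromosome attachment and cytokinesis, was far lower (ENSMUSG00000030867, chr7:122159439-122169873, plus strand). It stood at 5.17 and 7.71 TPM in Ctrl, from 115 and 196 reads, and at 8.09 and 4.32 TPM in AZ20, from 259 and 125 reads. The highest and the lowest of the 4 values were both in AZ20, so the groups overlapped entirely. The exact Poisson 95% intervals of the Ctrl libraries, 4.27 to 6.21 and 6.67 to 8.87 TPM, did not meet, nor did those of the AZ20 libraries, 7.13 to 9.13 and 3.60 to 5.15 TPM, so replicates differed by more than counting error. Such intervals cover counting error only. The log2 change was -0.08 (SE 0.34, 95% interval -0.89 to 0.74, adjusted p = 0.975), and the mouse pairs pointed in opposite directions, 0.56 and -0.71. Leaving out Ctrl replicate 2 gave 0.17 and leaving out AZ20 replicate 2 gave 0.31, both above 0. In the annotation an exon of the opposite-strand gene Gm44985 overlaps Plk1, and whether reads were counted by strand is not given in the sources used here.

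Plk2, a stress- and activity-induced kinase that also acts at centrosomes, had the largest fitted change of the 10 (ENSMUSG00000021701, chr13:110395046-110400844, plus strand). It stood at 3.18 and 4.86 TPM in Ctrl and at 5.35 and 8.38 TPM in AZ20, from 90, 157, 218 and 308 reads. Both AZ20 libraries lay above both Ctrl libraries. Means were 4.02 ± 1.18 and 6.87 ± 2.14 TPM (SD, n = 2), a ratio of 1.71. Replicates differed by 1.53-fold within Ctrl and by 1.57-fold within AZ20. The log2 change was 0.64 (SE 0.32, 95% interval -0.11 to 1.39) and did not pass the test (limma unadjusted p = 0.0831, adjusted p = 0.655). Both mouse pairs were above 0, at 0.60 and 0.68. With the mouse as a block the unadjusted p was 0.0301 and the adjusted p was 0.29 in limma, where 13.3% of all tested genes had an unadjusted p under 0.05. The ratio of Plk2 to Plk1 was 0.616 and 0.630 in Ctrl and 0.662 and 1.94 in AZ20, so both AZ20 libraries were above both Ctrl libraries, AZ20 replicate 1 only slightly (exact permutation test, two-sided p = 0.333, the smallest that 2 against 2 libraries can give).

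Plk3, the paralog linked to stress and DNA damage responses, was all but unread (ENSMUSG00000028680, chr4:117128655-117133963, minus strand). Only AZ20 replicate 2 held a read of Plk3, 1 in all, which gave 0.0322 TPM, and the other libraries were at 0. A count of 0 allows up to 3 reads at a one-sided 95% level, which corresponds to 0.126 and 0.110 TPM in the Ctrl libraries and 0.0872 TPM in AZ20 replicate 1. No test was made, since the gene was under the filter of a mean of 1 TPM. The promoter stretch printed above for Plk3 belongs to this gene without reads. The opposite-strand gene Tctex1d4, whose exons overlap Plk3, was at 0 in all 4 libraries.

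Plk5, a Polo-like kinase without a complete kinase domain that was not among the 10 genes, was covered by 110 and 61 reads under Ctrl conditions, against 61 and 38 with AZ20, or means of 3.83 ± 1.88 and 1.68 ± 0.435 TPM (SD, n = 2). In TPM, both AZ20 libraries were lower than both Ctrl libraries. The log2 change was -0.80 (SE 0.36, 95% interval -1.67 to 0.06) and did not pass the test (limma adjusted p = 0.596, and 0.204 with the mouse as a block).

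Aurka was the second most abundant of the 10 genes (ENSMUSG00000027496, chr2:172356190-172370535, minus strand). It stood at 139 and 127 TPM in Ctrl and at 128 and 101 TPM in AZ20, from 2664, 2789, 3550 and 2518 reads. AZ20 replicate 2 was the lowest library, and AZ20 replicate 1 lay between the Ctrl libraries. Means were 133 ± 8.25 and 114 ± 19.4 TPM (SD, n = 2), a log2 change of -0.22 (SE 0.19, 95% interval -0.67 to 0.23, limma adjusted p = 0.825). Both mouse pairs were below 0, at -0.11 and -0.33. Aurka and Plk1 were the genes of the set with a fitted change below 0.

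Aurkb stood lowest among the Aurora kinases (ENSMUSG00000020897, chr11:69045647-69051664, plus strand). It had 1.22 and 2.13 TPM in Ctrl and 1.65 and 2.57 TPM in AZ20, from only 24, 48, 47 and 66 reads. The groups overlapped, and the counting intervals of the replicates overlapped in Ctrl, 0.779 to 1.81 against 1.57 to 2.82 TPM, and in AZ20, 1.21 to 2.20 against 1.99 to 3.27 TPM. The log2 change was 0.23 (SE 0.34, 95% interval -0.58 to 1.03, adjusted p = 0.913 in limma). The interval reaches past 2-fold, so at this depth neither a rise of that size nor its absence was shown. After quantile normalization the change was -0.04, and without Ctrl replicate 1 it was -0.02.

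Aurkc, the Aurora kinase of germ cells, was the more abundant passenger kinase (ENSMUSG00000070837, chr7:6995300-7003091, plus strand). It stood at 19.9 and 21.3 TPM in Ctrl and at 30.9 and 17.2 TPM in AZ20. The AZ20 libraries were the highest and the lowest of the 4, and the counting intervals of these AZ20 libraries, 28.6 to 33.4 and 15.4 to 19.2 TPM, did not meet. Means were 20.6 ± 1.01 and 24.1 ± 9.70 TPM (SD, n = 2), a log2 change of 0.16 (SE 0.30, 95% interval -0.55 to 0.86, limma adjusted p = 0.934). The pairs disagreed in sign, at 0.61 and -0.29, and without AZ20 replicate 1 the change was -0.25. The ratio of Aurkc to Aurkb was 16.4 and 10.0 in Ctrl and 18.7 and 6.70 in AZ20, so the germ cell paralog exceeded Aurkb in every library.

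TPM are per length, so the Aurora kinases could be compared within a library. Aurka made up 86.8% and 84.4% of the summed Aurora kinase TPM in Ctrl and 79.7% and 83.6% in AZ20. Aurkc made up 12.5% and 14.2% in Ctrl and 19.2% and 14.3% in AZ20, and Aurkb between 0.761% and 2.13%. Both AZ20 libraries had a larger Aurkc share than both Ctrl libraries, although AZ20 replicate 2 did so by the smallest margin, 14.3% against 14.2%. Mean Aurkc shares were 13.3% ± 1.22 and 16.8% ± 3.51 (SD, n = 2), a difference of 3.44 points (exact permutation test, two-sided p = 0.333, the smallest possible here). Without AZ20 replicate 1 the difference was 0.960 points.

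**Figure D2:**
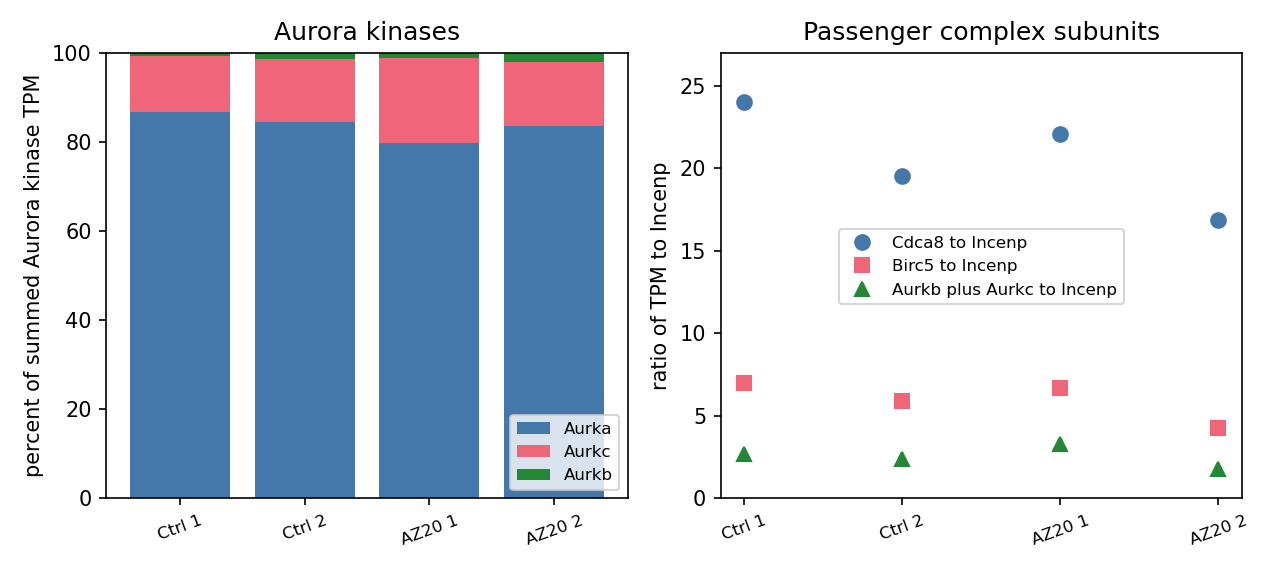
Left, the share of the summed Aurora kinase TPM from Aurka (blue), Aurkc (pink) and Aurkb (green) in each library, in percent. Right, the TPM of Cdca8, of Birc5 and of Aurkb plus Aurkc divided by that of Incenp in each library, where Cdca8 exceeded Incenp by 16.9 to 24.0 times and replicate 1 of each group lies above replicate 2 for all 3 ratios.

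Cdca8, which encodes borealin, had the highest level of the set (ENSMUSG00000028873, chr4:124918465-124939311, minus strand). It stood at 187 and 194 TPM in Ctrl and at 220.0 and 191 TPM in AZ20, from 3074, 3638, 5200 and 4083 reads. AZ20 replicate 1 was highest and AZ20 replicate 2 lay between the Ctrl libraries. Means were 191 ± 4.67 and 206 ± 20.2 TPM (SD, n = 2), a log2 change of 0.11 (SE 0.16, 95% interval -0.28 to 0.49, limma adjusted p = 0.916). Its exons overlap those of the opposite-strand gene 9930104L06Rik, which was itself at 4.82 and 2.59 TPM in Ctrl and 5.89 and 5.70 TPM in AZ20. The start used for the promoter window lies inside the annotated span of the gene.

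Birc5, which encodes survivin, stood close to Plk4 in level (ENSMUSG00000017716, chr11:117849251-117855743, plus strand). It had 54.3 and 58.7 TPM in Ctrl and 66.8 and 48.2 TPM in AZ20. As with Aurkc, the AZ20 libraries were the highest and the lowest, and they differed by 1.39-fold against 1.08-fold in Ctrl. Means were 56.5 ± 3.13 and 57.5 ± 13.2 TPM (SD, n = 2), a log2 change of 0.01 (SE 0.22, 95% interval -0.51 to 0.53, limma adjusted p = 0.997). It came to -0.08 with both quantile normalization and median-of-ratios scaling, which lower the median of all genes as given above for Plk4. Leaving out Ctrl replicate 1 gave -0.05, and leaving out AZ20 replicate 1 gave -0.22.

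Incenp, the scaffold onto which the kinase and both other subunits assemble, was the least abundant of the regulatory subunits (ENSMUSG00000024660, chr19:9872296-9899551, minus strand). It stood at 7.79 and 9.92 TPM in Ctrl and at 9.96 and 11.3 TPM in AZ20. The groups did not overlap, but Ctrl replicate 2 and AZ20 replicate 1 were nearly equal, and their counting intervals, 8.93 to 11.0 and 9.08 to 10.9 TPM, coincided for most of their length. Means were 8.86 ± 1.50 and 10.7 ± 0.979 TPM (SD, n = 2), a log2 change of 0.25 (SE 0.24, 95% interval -0.33 to 0.82, adjusted p = 0.843 in limma). Both pairs were above 0, at 0.32 and 0.18.

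The subunits of the passenger complex were read at very unequal levels. Cdca8 exceeded Incenp by 24.0 and 19.6 times in Ctrl and by 22.1 and 16.9 times in AZ20. The ratio of Birc5 to Incenp was 6.96 and 5.92 in Ctrl and 6.71 and 4.24 in AZ20. Summed Aurkb and Aurkc exceeded Incenp by 2.71 and 2.37 times in Ctrl and by 3.27 and 1.74 times in AZ20. For each of these ratios the groups overlapped, and in each group replicate 1 was the higher library. Cdca8 and Birc5 kept closer to each other, with ratios of 3.45 and 3.31 in Ctrl and 3.29 and 3.97 in AZ20.

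The comparison of AZ20 with Ctrl asked whether the inhibitor changed any of these transcripts. A gene was called when it changed by at least 2-fold with a limma adjusted p under 0.05, among 10316 genes with a mean above 1 TPM in either group, of which 9 of the 10 genes were part. None of the 9 was called higher, where 2.28% of all tested genes were, and none was called lower, where 0.0485% were. At an unadjusted p under 0.05 limma also found 0 of the 9, against 9.16% of all tested genes. Voom on reads recovered from the TPM called 0, with 0 at an unadjusted p under 0.05. These fits had no term for the mouse. With the mouse as a block, limma had 1 of the 9 at an unadjusted p under 0.05, Plk2, against 13.3% of all tested genes. The groups did not overlap for 2 of the 9, Plk2 and Incenp, both higher with AZ20, or 22.2%, against 26.4% of all tested genes that were higher without overlap and 11.7% that were lower without overlap. That share lies near the background and says nothing particular about the genes. All 10 genes lie on autosomes, while these shares of all tested genes include X- and Y-linked genes. The paper reports X- and Y-linked genes as highly upregulated with AZ20. A limma fit to 9930 autosomal genes only called 0 higher and 0 lower, with 640 at an unadjusted p under 0.05.

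The fitted change was above 0 for 7 of the 9 (5 with median-of-ratios scaling and 4 with quantile normalization) and below 0 for 2, with a median log2 change of 0.11, against 0.07 over all genes tested. Of all 10316 genes tested, 6166 had a fitted change above 0 and 4150 below 0. For 8 of the 9, all but Plk2, the larger fold between replicates of a group exceeded the fold between the group means. The signs in both mouse pairs were the same for 5 genes (Plk2, Plk4, Aurka, Aurkb and Incenp) and opposite for 4 (Plk1, Aurkc, Birc5 and Cdca8). Neither this count nor the one before it was taken over all tested genes. On the log2(TPM + 1) scale the 95% interval lay within 2-fold in both directions for 7 of the 9. For Plk2 and Aurkb it reached past 2-fold. That scale understates changes of low genes, so the interval of Plk1, which began at 0.539-fold there, may reach past 2-fold in TPM. Changes smaller than those intervals were not detectable with 2 libraries in each group.

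**Figure D3:**
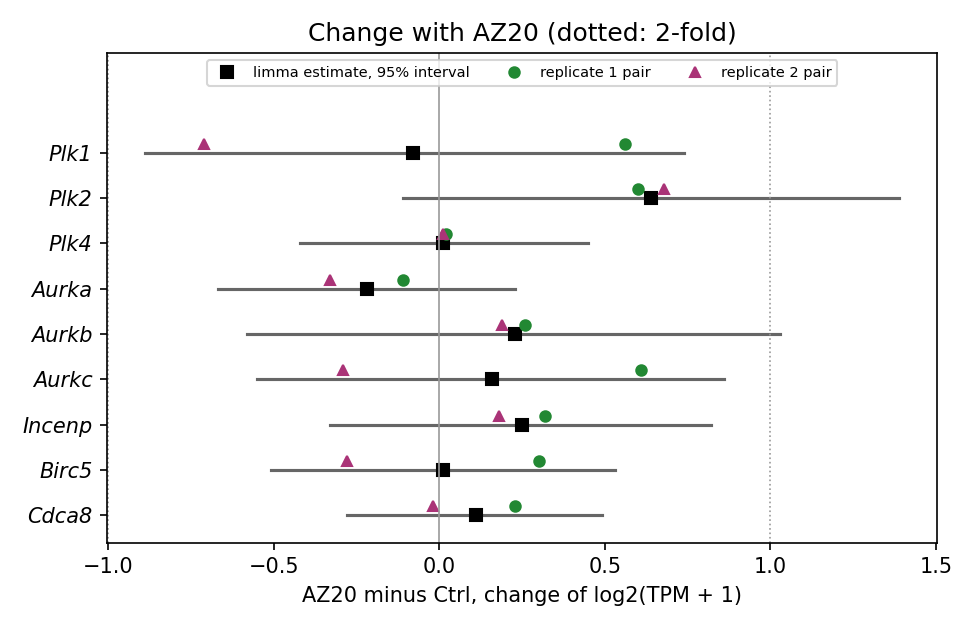
Change of log2(TPM + 1) with AZ20 for the 9 genes that were tested. Squares with lines are limma estimates with 95% intervals. Circles and triangles are the differences within the replicate 1 and replicate 2 pairs, and dotted lines mark 2-fold on that scale. Every interval includes 0, and the pairs lie on opposite sides of 0 for Plk1, Aurkc, Birc5 and Cdca8.

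Genes that work with these kinases were followed in lists, and some genes stand in several lists. Each list is described by its counts beside the 2.28% and 0.0485% of all tested genes called higher and lower. At an unadjusted p under 0.05 in limma the share of all tested genes was 9.16%, in either direction. Those shares include X- and Y-linked genes. For the Aurora A cofactors and partners, 9 of 10 genes were tested and none was called by limma or voom. At an unadjusted p under 0.05 limma had 1 higher and 1 lower, and voom had 2 in all, and the median log2 change was 0.26. The spindle protein gene Tacc3 had the highest level, 20.5 ± 2.26 TPM in Ctrl and 25.3 ± 1.25 TPM in AZ20 (log2 change 0.29, adjusted p = 0.781). Hmmr, which encodes a spindle-pole hyaluronan receptor protein, stood at 7.06 and 9.72 TPM in Ctrl and at 3.27 and 5.57 TPM in AZ20, a log2 change of -0.81 (95% interval -1.55 to -0.07, limma unadjusted p = 0.0359, adjusted p = 0.493). Cpeb1, a regulator of translation that Aurora A phosphorylates in oocytes, had the opposite sign, with 0 and 0.418 TPM in Ctrl and 0.839 and 2.01 TPM in AZ20 (log2 change 0.98, adjusted p = 0.535). Its Ctrl mean was 0.209 TPM, so it passed the filter of 1 TPM only through AZ20, which favours a change in that direction.

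All 12 genes of chromosomal passenger targeting and effectors were tested, and none was called by limma or voom, with 1 at an unadjusted p under 0.05 in each and a median of 0.14. That gene in limma was Cenpa, the centromeric histone H3 variant, at 1.56 and 3.76 TPM in Ctrl and 5.66 and 6.61 TPM in AZ20. Both AZ20 libraries were above both Ctrl libraries, and the log2 change was 1.03 (95% interval 0.19 to 1.87, limma adjusted p = 0.403). With the mouse as a block Cenpa was called (adjusted p = 0.0344). Gsg2, the gene of haspin, the histone kinase that marks centromeres for the complex, was at 80.9 ± 27.4 TPM in Ctrl and 66.0 ± 7.84 TPM in AZ20 (log2 change -0.25, adjusted p = 0.858). Prc1, the spindle midzone bundler, was the most abundant of the list at 171 ± 10.9 and 171 ± 13.6 TPM (SD, n = 2).

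For PLK4 and centriole assembly, 10 of 11 genes were tested and limma and voom called 0, with 0 at an unadjusted p under 0.05 in each, and the median was 0.26. Cep152, the PLK4 recruiting protein gene, was not tested, with 0.206 to 0.429 TPM. Cep63, its partner at the centriole, stood at 112 ± 8.30 TPM in Ctrl and 99.8 ± 1.05 TPM in AZ20 (log2 change -0.16, adjusted p = 0.858). Fitted changes ran from -0.39 for Btrc, the ubiquitin ligase subunit that turns PLK4 over, to 0.41 for Cep97, which caps centrioles.

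Of the PLK1 regulators and substrates, 11 of 12 were tested and limma and voom called 0, with 1 and 2 genes at an unadjusted p under 0.05, and the median was -0.13. Pttg1, which encodes securin, was the most abundant, at 343 and 273 TPM in Ctrl and 461 and 422 TPM in AZ20, a log2 change of 0.53 (95% interval 0.12 to 0.93, limma unadjusted p = 0.0176, adjusted p = 0.361). Both AZ20 libraries were above both Ctrl libraries. Changes ran from -0.46 for Fzr1, the activator of the anaphase-promoting complex that degrades both PLK1 and Aurora A (adjusted p = 0.688), to 0.60 for Kif20a, a midzone kinesin that docks PLK1 (adjusted p = 0.555).

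The stress and immediate-early genes, which share inducible transcription with Plk2 and Plk3, were largely unread. Of 12 genes 3 were tested, 8 were under 1 TPM in all libraries, and limma and voom called 0, with 0 at an unadjusted p under 0.05 in each. Ier3, an early-response gene, stood at 2.81 ± 0.755 and 3.94 ± 1.55 TPM (log2 change 0.35, adjusted p = 0.836). Cdkn1a, which encodes the cell cycle inhibitor p21, was covered by 6 and 14 reads under Ctrl conditions, against 5 and 58 with AZ20, so that AZ20 replicate 2 alone was high (log2 change 0.42, adjusted p = 0.882). Its means were 0.446 and 1.18 TPM, so it too was tested only through AZ20. Dusp1, a phosphatase gene induced early by stress, had a log2 change of -0.11 (adjusted p = 0.972). AZ20 replicate 2 was also the library with the highest Plk2 level, but a link between Cdkn1a and Plk2 was not tested.

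Among 23 G2/M genes, all tested, 1 was called higher and 0 lower by limma, and the median was 0.05. Cks2, which encodes a subunit of cyclin-dependent kinases, stood at 408 and 452 TPM in Ctrl and at 970 and 1039 TPM in AZ20, a log2 change of 1.22 (SE 0.14, limma adjusted p = 0.00381). Fitted and adjusted over autosomal genes only, Cks2 did not pass (adjusted p = 0.125). Its paralog Cks1b stood at 852 ± 54.0 and 866 ± 223 TPM with a log2 change of 0.00. At an unadjusted p under 0.05 limma had 4 genes higher and 1 lower, against 9.16% of all tested genes in either direction. The higher ones were Cks2, Pttg1, Cdk1 and Kif20b, of which the last 2 were named after their values were seen. The lower one was Hmmr, and both Hmmr and Pttg1 were counted in lists above as well. At the same threshold voom had 6 in all. Cdk1, the kinase of M phase entry, stood at 56.4 and 86.7 TPM in Ctrl and 110 and 115 TPM in AZ20 (log2 change 0.68, adjusted p = 0.407). For Kif20b, a kinesin of late division, the log2 change was 0.53 (adjusted p = 0.451).

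**Figure D4:**
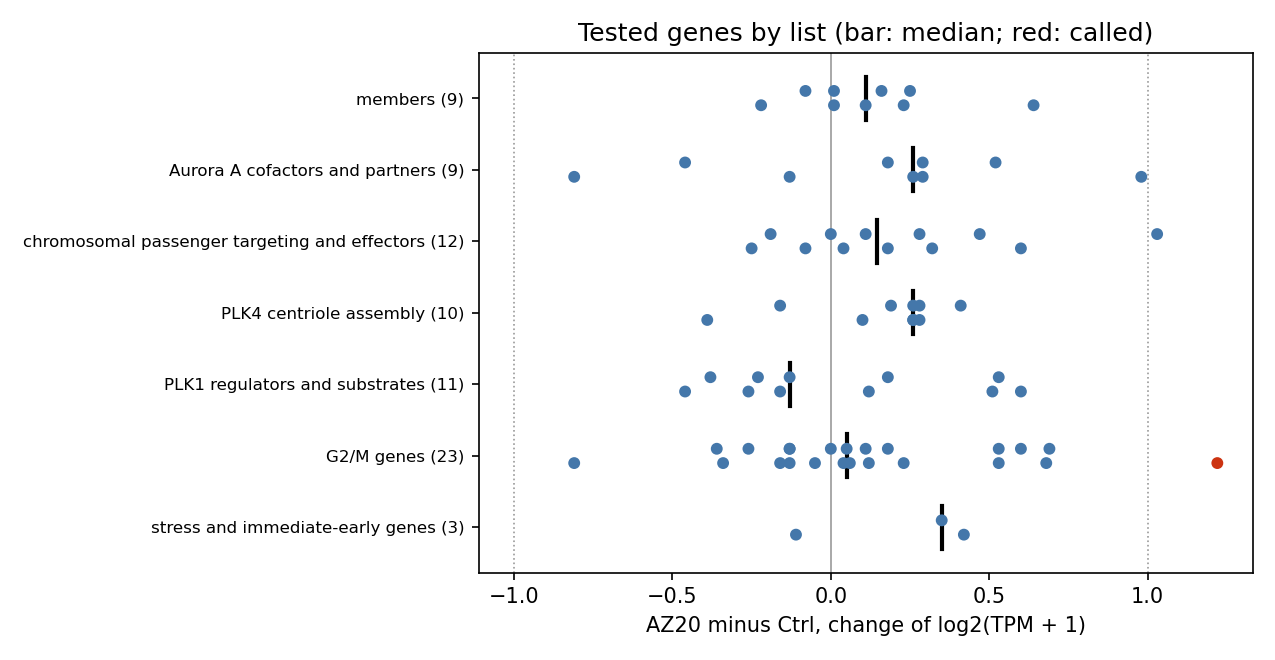
Change of log2(TPM + 1) with AZ20 for the tested genes of the set and of each list, with the number tested in parentheses. A bar marks the median, and dotted lines mark 2-fold on that scale. Called genes are red. Cks2 at 1.22 is the red point, and the medians lie between -0.13 and 0.35.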

How the data were processed

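Total RNA was extracted, and 4 libraries made from it with a low-input preparation were sequenced from both ends. Per the labels and the methods, the authors trimmed reads with Trimmomatic 0.39, aligned unique reads to GRCm38 with STAR 2.5.4b and counted them per refGene gene with featureCounts 2.0.1. The deposited values are TPM, which the authors calculated from those counts, and 92 lines without a gene name were left out. TPM keeps no depth, but its steps gave whole reads for all 16857 genes above 0 (within 0.08 of a whole number), with 1033 genes set by a common factor that TPM alone cannot fully fix. These reads gave depths, Poisson intervals and the voom test.

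Log2(TPM + 1) was fitted with limma 3.58.1 in R 4.3.3 (lmFit and eBayes with trend, two-sided, Benjamini-Hochberg adjustment over all 10316 genes with a mean above 1 TPM in Ctrl or AZ20). Fold changes are on that scale, which understates changes of low genes. A call needed at least 2-fold and an adjusted p under 0.05. The fit was tested on simulated data.

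The members and lists were chosen with earlier results of these data known. Named genes were all members, Plk5, of each pathway list the tested genes of highest and lowest change, the most abundant one and any called one, and of each marker list the most abundant one. Other marker genes, Cep152, Cdk1 and Kif20b were named after their values were seen. Same-numbered libraries were taken to come from the same mouse, and the correlation of their deviations from the group means was 0.229. The fit with the mouse as a block, other pseudocounts, filters and scalings, voom and leaving out each library were alternatives. Gene coordinates are from GENCODE (GRCm38), promoters from RefSeq.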

Additional observations from a re-analysis of the deposited data

How the results depend on the processing

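No alternative called any of the 9 tested genes, and the smallest adjusted p of a gene of the set over 15 alternatives was 0.29 (Plk2, replicate block). Of 134 values for the set, 117 kept their direction and 17 did not. Aurka, Cdca8, Incenp and Plk2 kept theirs throughout, at -0.39 to -0.05, 0.01 to 0.21, 0.03 to 0.40 and 0.36 to 0.92. Plk4 came to -0.08 with quantile normalization, -0.07 with median-of-ratios scaling and -0.01 with voom with or without the block, and Birc5 to -0.08, -0.08 and -0.01. Aurkb came to -0.04 with quantile normalization. Leaving out 1 library at a time, with the lone library assumed to vary like the other group, gave -0.46 to 0.31 for Plk1, -0.05 to 0.08 for Plk4, -0.02 to 0.47 for Aurkb, -0.25 to 0.56 for Aurkc and -0.22 to 0.24 for Birc5. The difference in Aurkc share ran from 0.960 to 5.92 points. Quantile normalization and median-of-ratios scaling moved the median over all tested genes from 0.07 to -0.07 and -0.00187, enough to turn changes as near 0 as those of Plk4 and Birc5. The cause of the other shifts was not tested.

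Over all genes, 235 were called higher and 5 lower. The replicate block called 424 and 23, a limma fit to autosomal genes only 0 and 0 (640 at an unadjusted p under 0.05), and leaving out 1 library 0 to 200 and 0 to 1. The 0 counts came without AZ20 replicate 1 (871 at an unadjusted p under 0.05) or replicate 2 (737). Called lower were 1 with no filter, 1 with voom and 3 with voom and the block. Beyond Cenpa and Prm1 the block changed no call named here. With 2 libraries per group no permutation p can fall below 0.333.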
